A study of Mus musculus with 8 samples.

Results

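The glutamate and GABA receptor genes other than the NMDA receptor subunits were followed in layer IV of mouse visual cortex. They were taken by gene symbol: the AMPA (Gria), kainate (Grik), delta (Grid) and metabotropic (Grm) glutamate receptor genes, and the GABA-A (Gabr) and GABA-B (Gabbr) receptor genes. The symbols found 40 of the 34980 genes in the count tables, and the 33 with at least 30 reads in all over the 6 libraries were kept. Of these, 18 encode glutamate receptor subunits and 15 encode GABA receptor subunits. The 7 genes left out held 0 to 10 reads over all libraries together. They were Gabra6, an alpha subunit of cerebellar granule cells, Grm6, the metabotropic receptor of retinal bipolar cells, Gabre (epsilon), Gabrp (pi) and the rho subunits Gabrr1, Gabrr2 and Gabrr3, which are best known from the retina. All 33 genes kept passed the filter on low counts and were tested.

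Total RNA came from layer IV dissected by hand from B6D2 mice. The groups were Otx2 +/GFP mice at postnatal day 30 (P30), which carry a GFP allele of the homeoprotein gene Otx2 beside a normal one and are called Otx2 +/- in the labels, wild-type mice (Otx2 +/+) at P100 and wild-type mice at P30. Each of these 3 groups had 2 libraries, with 4 mice pooled per condition. The labels do not say whether the 2 libraries of a group came from separate pools of mice, so that p-values measure the spread between libraries, which may be technical. The labels name no tissue or cell type to which the Otx2 +/GFP allele is limited. The 2 samples of Otx2 +/GFP mice at P100 were not analysed here.

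AMPA and kainate receptors are glutamate-gated cation channels that carry fast excitation, and delta receptors bind extracellular cerebellins and hold synapses together. Metabotropic glutamate receptors signal through G proteins: group I receptors act through phospholipase C and mostly sit behind the synapse, while groups II and III lower cyclic AMP and mostly restrain transmitter release. GABA-A receptors are chloride channels built from alpha, beta and a gamma or delta subunit, and GABA-B receptors are G protein-coupled pairs of Gabbr1 and Gabbr2. In mouse visual cortex, P30 falls in the critical period for ocular dominance plasticity and P100 in adulthood, and the maturing of GABA-A receptor inhibition is known for its part in starting that period.

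Gene-level totals ran from 11016841 to 15308781 counts per library, and the 33 receptor genes took 0.814% and 0.807% of them in Otx2 +/GFP P30, 0.795% and 0.806% in wild-type P100, and 0.757% and 0.784% in wild-type P30. The median ratio between duplicate libraries over the 33 genes was 1.05 in Otx2 +/GFP P30, 1.07 in wild-type P100 and 1.05 in wild-type P30, against 1.08, 1.09 and 1.10 over genes with at least 1 CPM in every library. Levels below are CPM, counts scaled to library size with edgeR's trimmed mean of M-values (TMM). Layer 4 markers summed to 973 and 1012 CPM in Otx2 +/GFP P30, 1045 and 1101 CPM in wild-type P100, and 1067 and 1171 CPM in wild-type P30, with Nr5a2 at 0 and Rorb, the defining layer 4 transcription factor, at 497 to 581 CPM. Otx2 itself had 0 counts in 5 libraries, which allows up to 0.201 to 0.274 CPM by counting error, and 4.75 CPM in replicate 2 of Otx2 +/GFP P30, so it could not check the genotypes. That replicate also held 584 CPM of Ttr, the main choroid plexus transcript, against 0 to 0.0724 CPM in the other libraries. Xist, expressed from the inactive X chromosome of females, was at 785 and 924 CPM in Otx2 +/GFP P30, against 0.264 to 0.639 CPM in the wild-type libraries, and Y-linked Ddx3y was at 2.48 and 1.04 CPM against 146 to 156 CPM. Genotype and the sex of the pools, which the labels do not give, cannot be told apart in any comparison of Otx2 +/GFP with wild-type libraries.

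Between P100 and P30 in wild-type mice, 3 of the 33 receptor genes were lower at P100 and none was higher, by edgeR's quasi-likelihood test with Benjamini-Hochberg adjustment at 0.05. The 3 were Grm2 and Grm3, the pair of group II metabotropic glutamate receptors, and Grik5, a high-affinity kainate receptor subunit. Of all 15841 genes tested, 4.54% were lower and 3.0% higher, 7.54% in either direction. The log2 difference was positive for 14 of the 33 genes, against 50.2% of all genes, with a median of -0.04, and 26 of 33 differed by less than 1.2-fold. The share of all genes within 1.2-fold was not computed. The libraries of the 2 ages did not overlap for 15 of the 33 genes (45.5%), against 51.2% of all genes.

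Between Otx2 +/GFP and wild-type mice at P30, 0 of the 33 receptor genes passed the threshold with edgeR, against 3.23% of all genes tested (0.903% higher and 2.32% lower). DESeq2 and limma-voom also called 0. In edgeR, 5 genes had an unadjusted p under 0.05, among them Gabrg3, Grm8 and Gabra5 with positive differences and Gabbr1 with a negative one. The share of all genes under that unadjusted p was not computed, so this count is not read as a result. The log2 difference was positive for 25 of the 33 genes, against 50.7% of all genes, with a median of 0.07. Groups did not overlap for 17 of the 33 genes (51.5%), against 48.9% of all genes.

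When Otx2 +/GFP P30 libraries were set directly against wild-type P100 libraries, 5 of the 33 receptor genes were higher in Otx2 +/GFP P30 and none was lower, against 2.44% and 2.66% of all genes (5.10% in either direction). The 5 were Grm2, Grm3, the kainate subunit gene Grik3 and the GABA-A subunit genes Gabra5 and Gabrg3. This comparison is the difference between the effects of genotype and age above, which share the wild-type P30 libraries, and age, genotype and sex cannot be told apart in it. The log2 difference was positive for 22 of the 33 genes, against 50.1% of all genes. Groups did not overlap for 20 of the 33 genes (60.6%), against 50.5% of all genes.

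**Figure D1:**
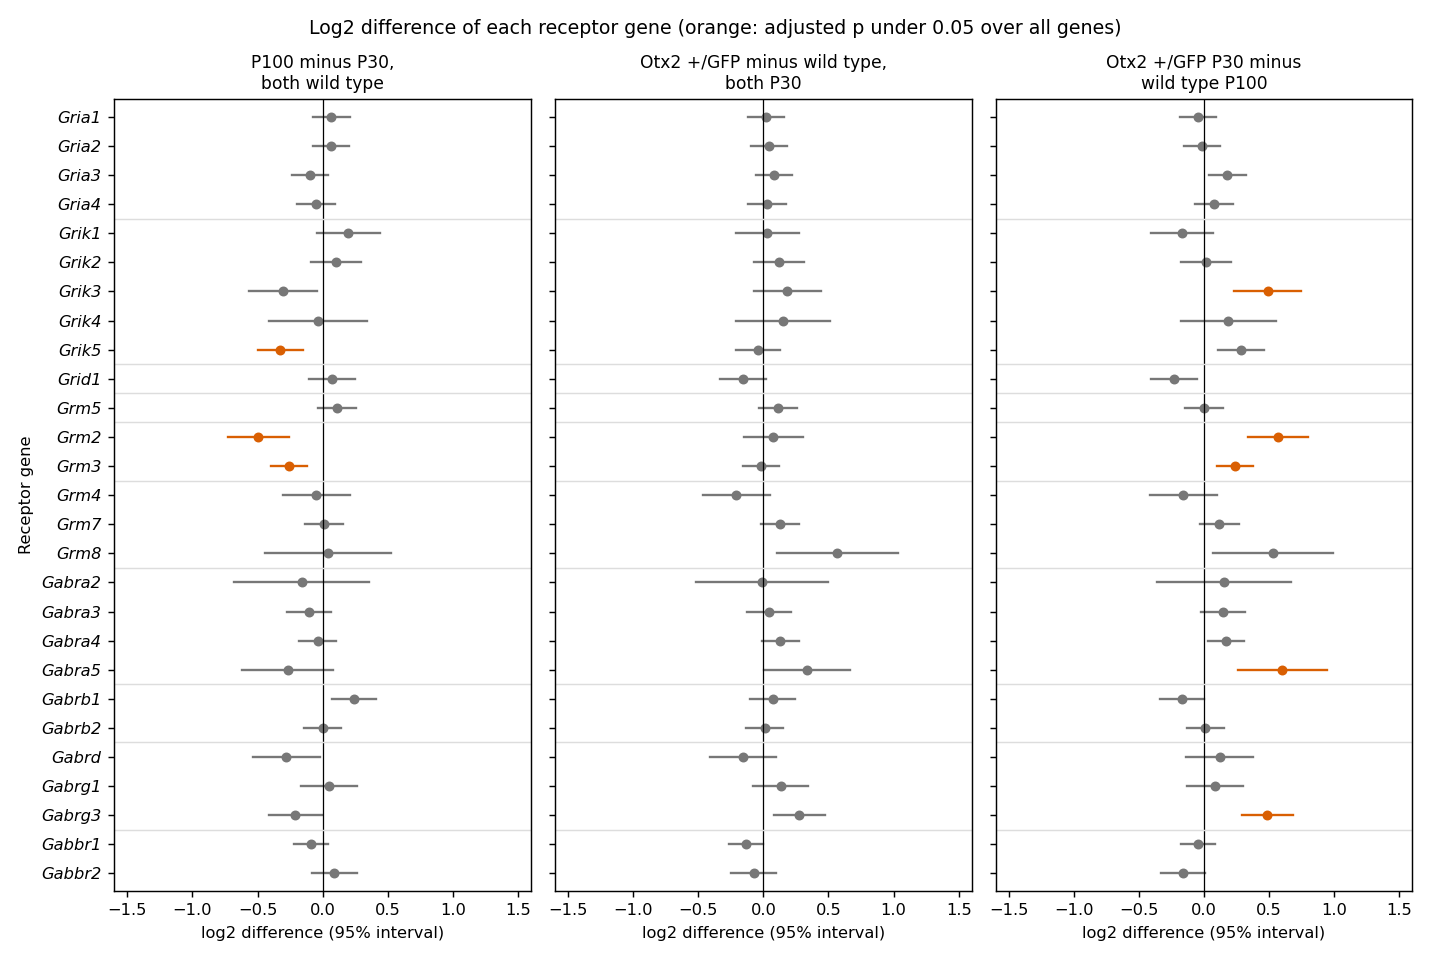
Log2 difference with its 95% interval (x axis) for receptor genes (rows, grouped by class) in 3 comparisons: wild-type P100 minus P30, Otx2 +/GFP minus wild type at P30, and Otx2 +/GFP P30 minus wild-type P100. Orange marks an adjusted p under 0.05 over all genes, which 3, 0 and 5 genes reached; Gabrq, at about 1 CPM, is not drawn because its intervals run past the axis.

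The stretches just before the transcription starts of called genes are shown because these genes differed in the same direction between Otx2 +/GFP P30 and wild-type P100. The window is the 250 bases before the RefSeq start on GRCm38.p6, and the 4 genes are those whose window held no annotated exon bases, which left out Gabrg3 and Grik5. The RefSeq start of Grm3 lies upstream of the gene as GENCODE annotates it, and the bases after that start were not found in its GENCODE transcripts, so its window is less certain than the other 3. Capitals mark the GC box GGGCGG, a motif read by Sp-family factors, or its reverse complement CCGCCC.
Grm2, chr9:106656110-106656359, minus strand: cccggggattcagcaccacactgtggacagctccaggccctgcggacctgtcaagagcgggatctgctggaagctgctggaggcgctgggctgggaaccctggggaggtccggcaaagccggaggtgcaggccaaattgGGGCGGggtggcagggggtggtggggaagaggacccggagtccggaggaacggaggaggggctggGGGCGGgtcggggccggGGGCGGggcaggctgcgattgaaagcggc
Grm3, chr5:9725353-9725602, minus strand: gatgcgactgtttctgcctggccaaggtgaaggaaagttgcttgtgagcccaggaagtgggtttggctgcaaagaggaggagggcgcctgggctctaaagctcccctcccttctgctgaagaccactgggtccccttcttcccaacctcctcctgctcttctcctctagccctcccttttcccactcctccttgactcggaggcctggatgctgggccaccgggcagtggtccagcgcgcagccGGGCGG
Grik3, chr4:125490446-125490695, plus strand: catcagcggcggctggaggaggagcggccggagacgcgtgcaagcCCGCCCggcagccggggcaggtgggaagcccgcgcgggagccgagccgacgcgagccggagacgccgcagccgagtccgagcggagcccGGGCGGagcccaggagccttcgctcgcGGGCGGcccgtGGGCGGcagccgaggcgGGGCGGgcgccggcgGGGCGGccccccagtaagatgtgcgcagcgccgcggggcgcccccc
Gabra5, chr7:57510060-57510309, minus strand: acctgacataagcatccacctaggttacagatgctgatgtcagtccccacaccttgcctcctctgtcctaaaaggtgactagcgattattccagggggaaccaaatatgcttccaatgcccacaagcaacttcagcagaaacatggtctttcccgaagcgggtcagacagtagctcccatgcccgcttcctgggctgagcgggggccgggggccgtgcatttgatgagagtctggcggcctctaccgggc

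The windows held 3 GC boxes in Grm2, 1 in Grm3, 6 in Grik3 and 0 in Gabra5, and their GC content was 71.2%, 62.4%, 82.0% and 56.4%. RefSeq promoters were matched for 21 of the 33 receptor genes, and a gene was counted if any of its windows held the motif. Of these 21, 14 (66.7%) held a GC box on either strand, as did 35.4% of all 27025 genes with a promoter of the same length. The core letters TAATCC of sites bound by Otx-class homeodomains, searched on both strands, were found for 1 of the 21, Gabra2, and for 7.21% of all genes. The cAMP response element core TGACGT was found for none of the 21 and for 7.29% of all genes. These matches describe letters in a short window and say nothing of binding.

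Per kilobase of the chosen transcript, Gria2 averaged 142.6 CPM per kilobase over the 6 libraries, with a range of 134 to 147, and the GABA-B gene Gabbr1 averaged 133 (126 to 140.1). The ranges of these genes overlapped. Gabrb2 was at 99.3, Grm3 at 95.4 and Gabbr2 at 93.4, whose ranges also overlapped. At the low end were Grik4 at 1.49 and Gabrq at 0.133 CPM per kilobase. Grik2 had no transcript length in the annotation used and has no value per kilobase.

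**Figure D2:**
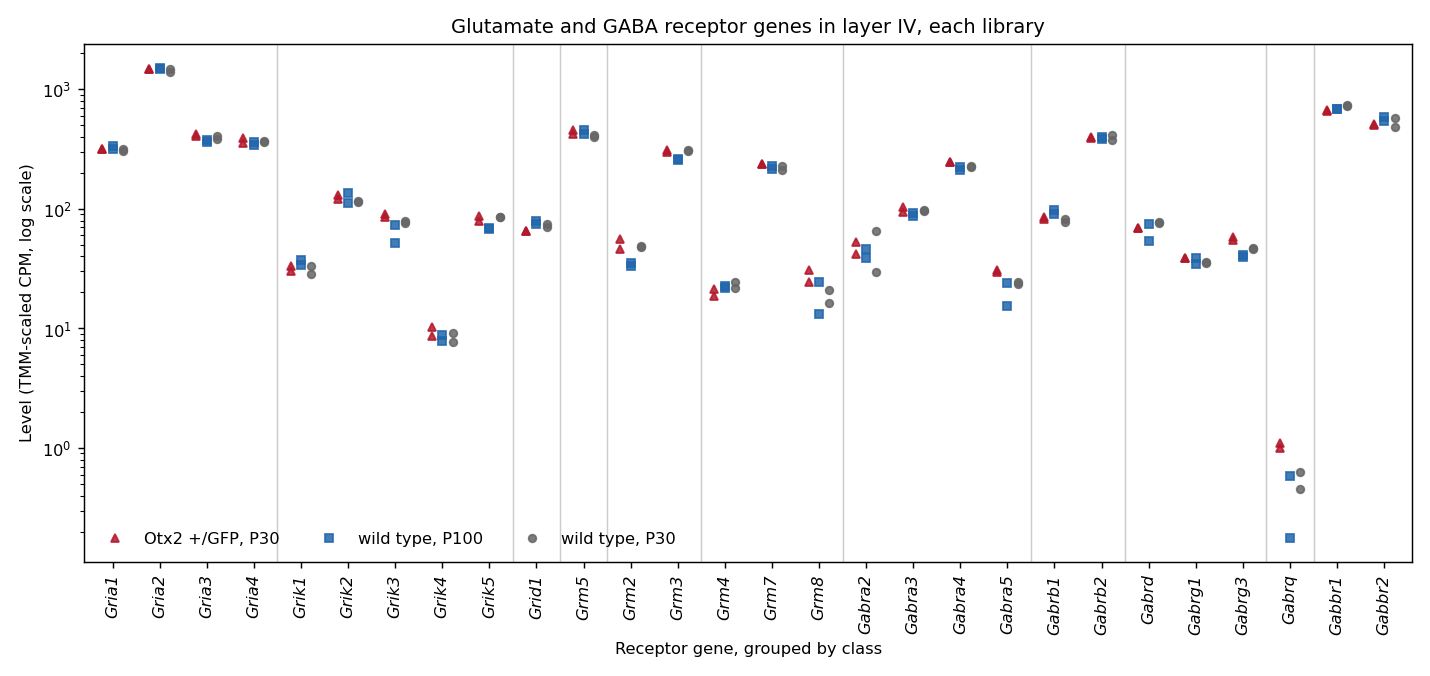
TMM-scaled CPM (y axis, log scale) of receptor genes (x axis, grouped by class) in each library of Otx2 +/GFP P30 (triangles), wild-type P100 (squares) and wild-type P30 (circles). Most genes have all 6 libraries close together; Gabra2 at wild-type P30, and Grm8, Grik3, Gabra5, Gabrd and Gabrq at wild-type P100, have duplicates that stand apart.

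Among the AMPA receptor genes, Gria2, whose edited subunit keeps AMPA receptors closed to calcium, had 1494 and 1483 CPM in Otx2 +/GFP P30, 1524 and 1488 CPM in wild-type P100, and 1392 and 1493 CPM in wild-type P30. All 3 groups overlapped. Its log2 difference was 0.06 between P100 and P30 (95% interval -0.08 to 0.20) and 0.05 between Otx2 +/GFP and wild type at P30 (-0.09 to 0.18). Gria2 made up 40.9% and 41.0% of the AMPA receptor counts per kilobase in Otx2 +/GFP P30, 42.7% and 42.5% in wild-type P100, and 40.3% and 41.6% in wild-type P30. Its lead depended on the choice of transcript. With counts summed over transcripts, Gria3 held 35.0% to 38.9% over the libraries and Gria2 27.1% to 29.4%. Gria1, Gria3 and Gria4, which encode the partner subunits, had group means between 312 and 419 CPM, and no AMPA receptor gene passed the threshold in any comparison. X-linked Gria3 was at 410 and 428 CPM in Otx2 +/GFP P30, 379 and 360 CPM in wild-type P100, and 386 and 404 CPM in wild-type P30. The part of the sex of the pools in its level was not tested.

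Among kainate receptor genes, Grik5 encodes a subunit that needs a Grik1 to Grik3 partner to form a channel. It lies on chromosome 7 (25009849 to 25072346, minus strand, mm10). Its level was 79.2 and 86.8 CPM in Otx2 +/GFP P30, 68.6 and 67.8 CPM in wild-type P100, and 85 and 85.8 CPM in wild-type P30. Both P100 libraries lay below the other 4. Grik5 fell at P100, by 0.32 on the log2 scale (SE 0.08, 1.25-fold, edgeR adjusted p = 0.0279). Otx2 +/GFP P30 against wild-type P100 gave 0.28 (edgeR adjusted p = 0.0606). At P30 the genotypes overlapped, with a log2 difference of -0.04 (95% interval -0.21 to 0.13). The age call was lost without any of the 4 wild-type libraries in turn, with log2 differences of -0.34 to -0.31. It was also lost with counts summed over transcripts (edgeR adjusted p = 0.0771). Grik5, Grik3, Grm2, Grm3 and Gabra5 have 1 transcript each in the count tables, so summing leaves their own counts unchanged. For these genes it acts only through the fit and adjustment over all genes.

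Grik3, a low-affinity kainate subunit gene on chromosome 4 (125490700 to 125714173, plus strand), had 90.6 and 85.6 CPM in Otx2 +/GFP P30, 73.0 and 52.1 CPM in wild-type P100, and 79.2 and 76.1 CPM in wild-type P30. The P100 duplicates differed by 1.40-fold, and replicate 2 was the lower. Grik3 was higher in Otx2 +/GFP P30 than in wild-type P100, by 0.49 on the log2 scale (SE 0.12, 1.40-fold, edgeR adjusted p = 0.0318). Without replicate 2 of wild-type P100 the difference was 0.27 (adjusted p = 0.221), and the call was also lost without replicate 1 (0.159) or 2 (0.0641) of Otx2 +/GFP P30 and with summed transcripts (0.103). The same replicate 2 had summed layer 5 markers at 201 CPM and layer 6 markers at 50.4 CPM, against 274 and 57.1 CPM in replicate 1 of wild-type P100 and 272 to 296 and 68.8 to 70.4 CPM in Otx2 +/GFP P30, and the part of deep-layer tissue in the result was not tested. Of the kainate receptor counts, without correction for length, Grik2 took the largest share, at 38.1% and 36.3% in Otx2 +/GFP P30, 42.0% and 41.1% in wild-type P100, and 36.9% and 35.9% in wild-type P30. Grik1, Grik2 and Grik4 passed the threshold in no comparison.

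The delta receptor genes were called in no comparison. Grid1, the delta subunit of forebrain synapses, had 65.9 and 64.9 CPM in Otx2 +/GFP P30, 74.1 and 79.3 CPM in wild-type P100, and 70.8 and 74.8 CPM in wild-type P30. The Otx2 +/GFP P30 libraries lay below the other 4, with a log2 difference from wild-type P100 of -0.23 (edgeR adjusted p = 0.135).

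Among group I metabotropic receptor genes, Grm5 encodes a receptor that couples to phospholipase C and binds Homer scaffolds. It had 456 and 425 CPM in Otx2 +/GFP P30, 457 and 425 CPM in wild-type P100, and 400 and 417 CPM in wild-type P30. Its log2 difference was 0.11 in each comparison with wild-type P30, with 95% intervals of -0.04 to 0.26. No group I gene passed the threshold in any comparison.

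Both group II receptor genes were lower at P100. Grm2 and Grm3 encode inhibitory receptors for glutamate spilled from the synapse, Grm2 chiefly in neurons and Grm3 in neurons and astrocytes. Grm2 lies on chromosome 9 (106643095 to 106656082, minus strand) and shares 9.51% of its exon bases with an opposite-strand gene. It had 46.0 and 55.9 CPM in Otx2 +/GFP P30, 33.2 and 35.5 CPM in wild-type P100, and 48.3 and 48.5 CPM in wild-type P30. The P100 libraries were the lowest, and the P30 genotypes overlapped. The mean was 34.4 ± 1.64 CPM at P100 and 48.4 ± 0.162 CPM at P30 in wild type (SD, n = 2 each), a fall of 1.41-fold (log2 difference -0.49, SE 0.11, edgeR adjusted p = 0.0154), the largest among the receptor genes called. The authors' deposited table gave a log2 difference of -0.49 with an adjusted p of 0.0321 for Grm2, and adjusted p of 0.308 for Grm3 and 0.229 for Grik5. Otx2 +/GFP P30 exceeded wild-type P100 by 0.57 (SE 0.11, 1.48-fold, edgeR adjusted p = 0.00803), while the difference between genotypes at P30 was 0.08 (95% interval -0.15 to 0.30).

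Grm3 lies on chromosome 5 (9485541 to 9725170, minus strand). Its level was 311 and 299 CPM in Otx2 +/GFP P30, 262 and 254 CPM in wild-type P100, and 305 and 313 CPM in wild-type P30. The 2 P100 libraries again lay below the other 4. The log2 difference of P100 from P30 was -0.26 (SE 0.06, 1.2-fold, edgeR adjusted p = 0.0266), and that of Otx2 +/GFP P30 from wild-type P100 was 0.24 (SE 0.06, 1.18-fold, edgeR adjusted p = 0.0473). At P30 the genotypes differed by -0.02 (95% interval -0.16 to 0.12). Grm3 held 91.2% and 89.2% of the group II counts per kilobase in Otx2 +/GFP P30, 92.4% and 91.7% in wild-type P100, and 90.7% and 90.9% in wild-type P30. Summed astrocyte markers were 5625 and 5721 CPM in Otx2 +/GFP P30, 5668 and 5447 CPM in wild-type P100, and 5896 and 6194 CPM in wild-type P30. Slc1a2 alone held 4111 to 4689 CPM of these sums, so they say little of the other markers. Aqp4 and Gja1, 2 of the 8 markers, were lower at P100 than at P30 in wild type. Against wild-type P100, 1 of the 8, Gja1, was higher in Otx2 +/GFP P30. The part of these markers in the result was not tested. In bulk tissue, fewer cells of a type and less RNA per cell cannot be told apart.

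The calls on group II genes were lost when some single libraries were left out, while their log2 differences kept their sign. That of Grm3 with age stayed between -0.28 and -0.23. Leaving out a library also leaves fewer residual degrees of freedom, and calls over all genes were fewest in such fits. With age, the Grm2 call was lost without replicate 2 of wild-type P30 (adjusted p = 0.0591), without replicate 1 (0.102) or 2 (0.0662) of wild-type P100 and with summed transcripts (0.0518), while its log2 difference stayed between -0.54 and -0.45 over libraries left out. The Grm3 age call was lost without each of the 4 wild-type libraries (0.0547 and 0.101 without replicates 1 and 2 of P30, 0.0848 and 0.161 without those of P100), with the 4 wild-type libraries alone (0.0521) and with summed transcripts (0.0605). Against wild-type P100, the Otx2 +/GFP P30 call on Grm2 was lost without replicate 1 of wild-type P100 (0.0776) or replicate 2 of Otx2 +/GFP P30 (0.0956), and that on Grm3 without replicate 1 or 2 of wild-type P100 (0.134 and 0.217), replicate 1 or 2 of Otx2 +/GFP P30 (0.337 and 0.148) and with summed transcripts (0.0981).

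**Figure D3:**
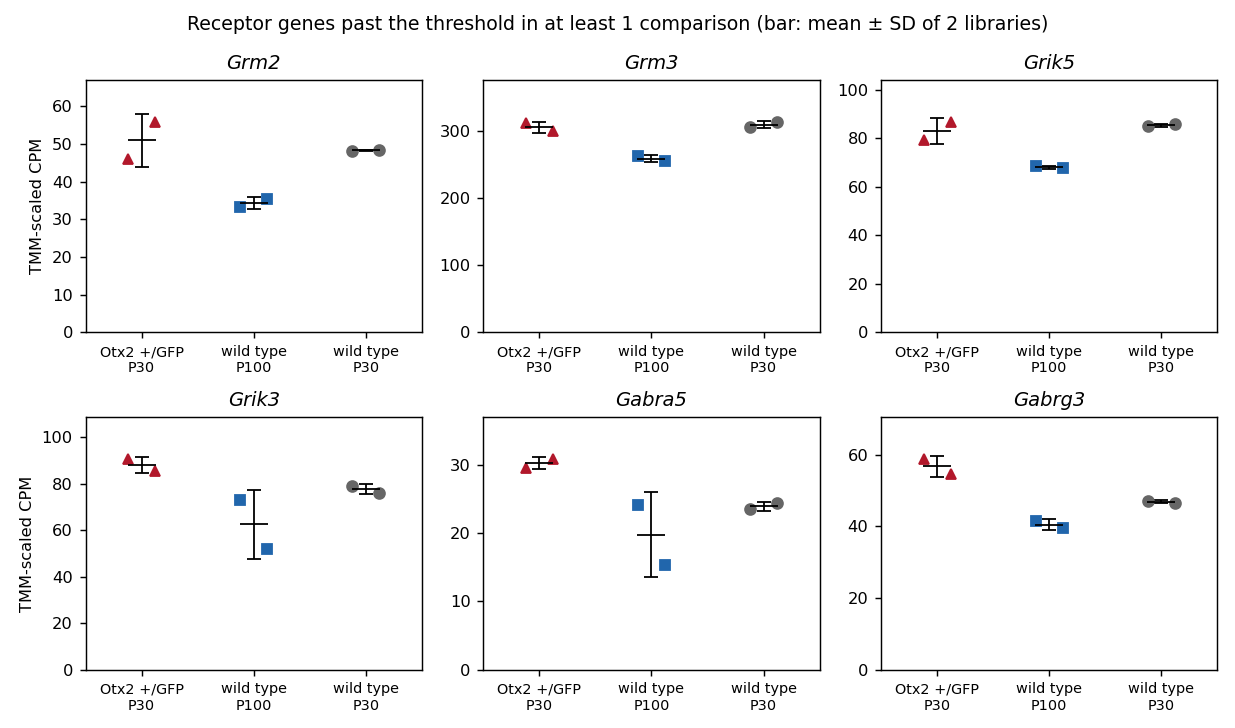
TMM-scaled CPM (y axis, from 0) of the 6 receptor genes past the threshold in at least 1 comparison, in Otx2 +/GFP P30, wild-type P100 and wild-type P30. Symbols are single libraries and bars the mean ± SD of 2; Grm2, Grm3 and Grik5 have both P100 libraries below all others, while the P100 duplicates of Grik3 and Gabra5 lie apart.

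Group III was led by Grm7, a presynaptic receptor of low glutamate affinity. It had 239 and 240 CPM in Otx2 +/GFP P30, 227 and 215 CPM in wild-type P100, and 210 and 227 CPM in wild-type P30, and held 81.9% to 86.2% of the group's counts per kilobase. Grm8 had 30.8 and 24.3 CPM in Otx2 +/GFP P30, 24.5 and 13.2 CPM in wild-type P100, and 21.2 and 16.3 CPM in wild-type P30. At P30 its libraries did not overlap between genotypes, with a log2 difference of 0.57 (95% interval 0.11 to 1.03), which did not pass after adjustment (edgeR adjusted p = 0.184). The P100 duplicates of Grm8 differed by 1.86-fold. Grm4, a presynaptic receptor gene with its highest levels in the cerebellum, had the largest negative difference between genotypes, with 21.3 and 18.8 CPM in Otx2 +/GFP P30, 22.9 and 21.9 CPM in wild-type P100, and 21.6 and 24.5 CPM in wild-type P30. The log2 difference from wild-type P30 was -0.21 (95% interval -0.46 to 0.05).

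GABA-A alpha subunits set the kinetics and place of the receptor. Gabra4, which pairs with the delta subunit outside synapses, took 20.8% to 23.7% of the alpha subunit counts per kilobase over the libraries, and X-linked Gabra3 took 9.17% to 11.4%. Gabra2 could not be placed well, since its duplicates at wild-type P30 were 29.7 and 64.8 CPM, a 2.18-fold gap. Its log2 difference with age was -0.16 (edgeR adjusted p = 0.746). Without replicate 1 of wild-type P30 it was -0.60 (edgeR adjusted p = 0.0256) and without replicate 2 it was 0.53 (edgeR adjusted p = 0.0822), so its direction rests on single libraries.

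Gabra5 encodes the alpha subunit of receptors that carry tonic inhibition, mostly outside synapses. It lies on chromosome 7 (57407672 to 57510059, minus strand). Its level was 29.6 and 30.8 CPM in Otx2 +/GFP P30, 24.1 and 15.3 CPM in wild-type P100, and 23.5 and 24.3 CPM in wild-type P30. The Otx2 +/GFP P30 libraries were the 2 highest and replicate 2 of wild-type P100 the lowest. Gabra5 was higher in Otx2 +/GFP P30 than in wild-type P100 by 0.60 on the log2 scale (SE 0.16, 1.52-fold, edgeR adjusted p = 0.0421). Without replicate 2 of wild-type P100 the difference was 0.32 (adjusted p = 0.242), without replicate 1 or 2 of Otx2 +/GFP P30 the adjusted p was 0.11 or 0.137, and with summed transcripts it was 0.119. Against wild-type P30 the Otx2 +/GFP difference was 0.34 (95% interval 0.00 to 0.67, edgeR adjusted p = 0.285).

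The beta subunits showed no call in any comparison. Gabrb2, a beta subunit gene of many cortical synapses, had 403 and 393 CPM in Otx2 +/GFP P30, 388 and 402 CPM in wild-type P100, and 379 and 411 CPM in wild-type P30, with all groups overlapping. With counts summed over transcripts, Gabrb2 held 39.7% to 42.8% of the beta counts per kilobase. By the chosen transcript it held 50.9% to 52.9% in the 6 libraries. Gabrb1, at 2.81% to 3.73%, had 82.0 and 85.8 CPM in Otx2 +/GFP P30, 91.3 and 97.6 CPM in wild-type P100, and 82.0 and 78.0 CPM in wild-type P30. Its P100 libraries were the 2 highest, with a log2 difference from P30 of 0.24 (95% interval 0.07 to 0.41) that did not pass (edgeR adjusted p = 0.0852).

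The delta subunit gene Gabrd, of receptors outside synapses, held a share of the gamma and delta counts per kilobase of 16.1% and 16.5% in Otx2 +/GFP P30, 14.3% and 17.5% in wild-type P100, and 20.6% and 19.2% in wild-type P30. Shares were not tested, since 2 libraries against 2 cannot give a low exact p. The level of Gabrd was 69.1 and 69.9 CPM in Otx2 +/GFP P30, 53.7 and 74.5 CPM in wild-type P100, and 78.1 and 77.0 CPM in wild-type P30, and its log2 difference with age was -0.28 (edgeR adjusted p = 0.184). Without replicate 2 of wild-type P100 that difference was -0.53 (edgeR adjusted p = 0.0233), and without replicate 1 it was -0.058 (edgeR adjusted p = 0.794).

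Gabrg3 encodes a gamma subunit that is scarce in cortex. It lies on chromosome 7 (56716465 to 57387188, minus strand), next to Gabra5. The level of Gabrg3 was 58.8 and 54.7 CPM in Otx2 +/GFP P30, 41.5 and 39.5 CPM in wild-type P100, and 47.2 and 46.6 CPM in wild-type P30. No group overlapped another, with Otx2 +/GFP P30 highest and wild-type P100 lowest. Gabrg3 was higher in Otx2 +/GFP P30 than in wild-type P100 by 0.48 (SE 0.09, 1.40-fold, edgeR adjusted p = 0.00785), the smallest adjusted p of any receptor gene. Its differences from wild-type P30 were 0.28 in Otx2 +/GFP P30 (95% interval 0.08 to 0.47, edgeR adjusted p = 0.123) and -0.21 in wild-type P100 (-0.41 to -0.01, edgeR adjusted p = 0.2). The call against wild-type P100 was lost without replicate 2 of wild-type P100 (adjusted p = 0.0676), without replicate 1 of Otx2 +/GFP P30 (0.0909) and with summed transcripts (0.0704).

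Markers of the deeper layers were read in the same libraries. Summed layer 5 markers were 296 and 272 CPM in Otx2 +/GFP P30, 274 and 201 CPM in wild-type P100, and 222 and 216 CPM in wild-type P30, and layer 6 markers were 70.4 and 68.8 CPM, 57.1 and 50.4 CPM, and 64.6 and 55.9 CPM in the same order, with Nxph4 at or near 0 in every library. Between Otx2 +/GFP P30 and wild-type P100, 1 of 6 layer 5 and 2 of 5 layer 6 markers tested were higher, and 4 of 7 layer 4 markers were lower. The layer 5 sums overlapped between these groups. The part of these in the differences of Grik3, Gabra5, Gabrg3 and Grm2 was not tested.

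GABA-A receptor genes lie in clusters, and the called GABA-A genes, Gabra5 and Gabrg3, are neighbours on chromosome 7. The cluster of Gabrg1, Gabra2, Gabra4 and Gabrb1 on chromosome 5 (70751047 to 72149037, mm10) held no called gene, nor did that of Gabre, Gabra3 and Gabrq on the X chromosome (72255999 to 72842602). Gabrq, the theta subunit gene, was barely detected, with 15 and 17 reads in Otx2 +/GFP P30, 8 and 2 reads in wild-type P100, and 5 and 9 reads in wild-type P30. That came to 1.01 and 1.11 CPM, 0.579 and 0.176 CPM, and 0.457 and 0.626 CPM in the same order. It had the largest positive log2 difference in both comparisons of Otx2 +/GFP P30, at 1.40 against wild-type P100 (95% interval 0.23 to 2.57, edgeR adjusted p = 0.173) and 0.93 against wild-type P30 (-0.16 to 2.02, edgeR adjusted p = 0.375). Gabrq is X-linked, and the part of the sex of the pools in these values was not tested.

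**Figure D4:**
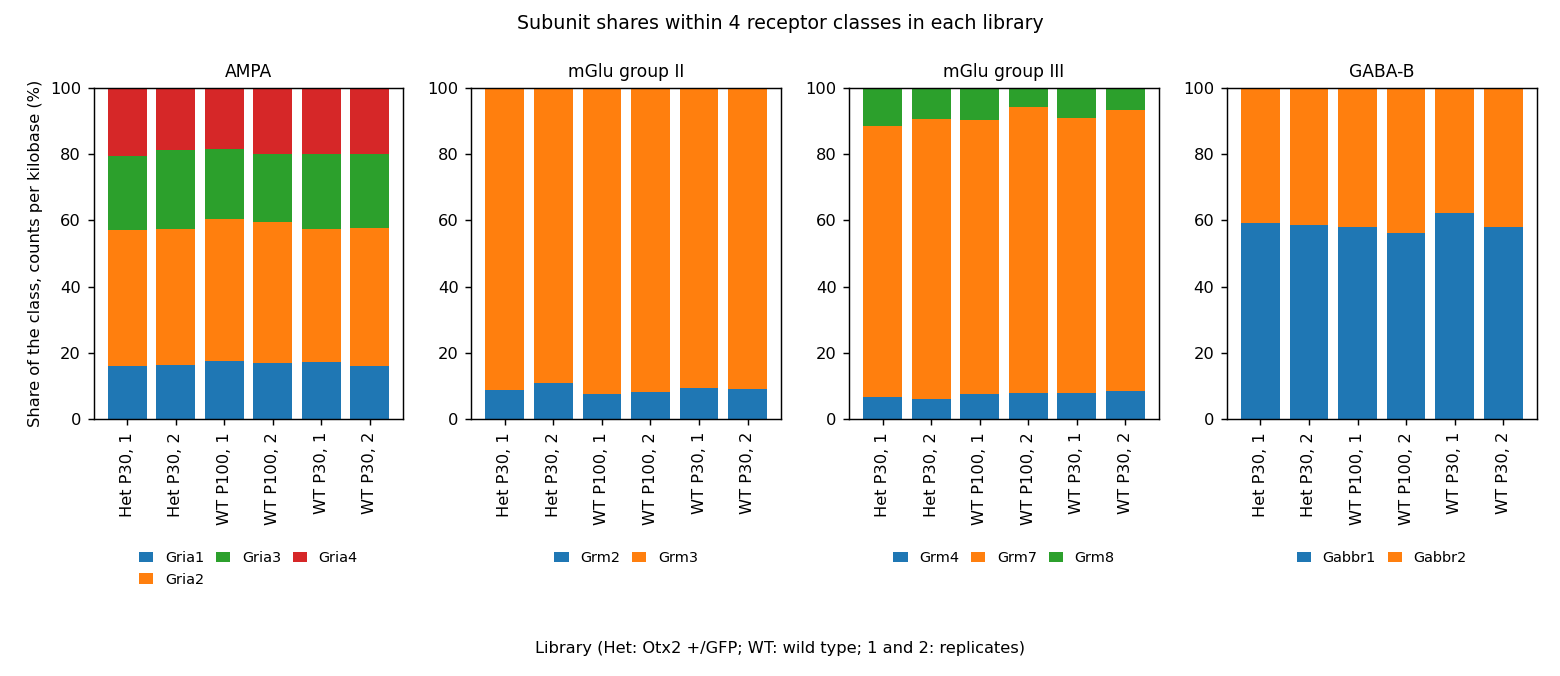
Share of each subunit (y axis, percent of the counts per kilobase of its class) in each library (x axis) for AMPA, group II and group III metabotropic glutamate and GABA-B receptor genes. By the chosen transcript of each gene, Gria2, Grm3, Grm7 and Gabbr1 lead their classes in all 6 libraries, with Grm3 at 89.2% to 92.4%. With counts summed over transcripts, Gria3 and not Gria2 leads the AMPA genes.

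GABA-B receptors need both of their subunits, Gabbr1 binding GABA and Gabbr2 coupling to G proteins. Gabbr1 had 670 and 663 CPM in Otx2 +/GFP P30, 686 and 691 CPM in wild-type P100, and 735 and 730 CPM in wild-type P30. No group overlapped another, and wild-type P30 was highest. The differences from wild-type P30 were -0.14 in Otx2 +/GFP P30 (95% interval -0.27 to -0.01, edgeR adjusted p = 0.268) and -0.09 in wild-type P100 (-0.22 to 0.04, edgeR adjusted p = 0.415). Gabbr2 had 503 and 514 CPM in Otx2 +/GFP P30, 547 and 590 CPM in wild-type P100, and 489 and 581 CPM in wild-type P30, and passed the threshold in no comparison.

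Proteins that anchor these receptors or carry their signals were read from a list of 76 genes, of which 73 were tested. With age, 2 of the 73 were higher and 13 lower at P100 in wild type, against 3.0% and 4.54% of all genes. Homer1, the group I mGlu scaffold, had 565 and 444 CPM in wild-type P100, against 916 and 1122 CPM in wild-type P30, and its log2 difference was -1.01 (edgeR adjusted p = 9.5e-05). Rgs4, which shortens G protein signals, was lower (log2 difference -0.60, adjusted p = 0.0012) and Grasp, which ties group I receptors to the membrane trafficking machinery, was lower as well (-0.76, 0.00828). Itpr1, the calcium channel opened downstream of group I receptors, was higher (0.35, 0.00448). In the AMPA receptor list, the pentraxin gene Nptx1 was higher (0.41, 0.00439), while Nptx2 (-0.61, 0.0186), the auxiliary subunit gene Cacng4 (-0.72, 0.0413) and the pentraxin receptor gene Nptxr (-0.28, 0.0459) were lower. Of the 12 postsynaptic scaffold genes 4 were lower at P100, among them Shank1 (-0.49, 0.00522), Dlg4 (-0.30, 0.0281) and Dlgap2 (-0.34, 0.0378). In the GABA-A list, the trafficking adaptor gene Trak2 (-0.46, 0.00119), the synaptic adhesion gene Nlgn2 (-0.30, 0.0244) and Lhfpl4 (-0.27, 0.0481) were lower. No kainate, delta or GABA-B partner passed with age. Oligodendrocyte markers moved in the same comparison, with 8 of 8 lower at P100 and sums of 1515 and 1288 CPM in wild-type P100 against 2717 and 2671 CPM in wild-type P30, and their part in these counts was not tested.

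Between genotypes at P30, 2 of the 73 partner genes were higher in Otx2 +/GFP and 8 lower, against 0.903% and 2.32% of all genes. Homer1 was again among the lower, with 532 and 535 CPM in Otx2 +/GFP P30 against 916 and 1122 CPM in wild-type P30 (log2 difference -0.93, edgeR adjusted p = 0.000309). In the kainate and delta list, Cbln4 and Cbln2, secreted cerebellins that bridge neurexins and delta receptors, were lower. Cbln4 had 12.2 and 19.2 CPM in Otx2 +/GFP P30 against 37.0 and 40.5 CPM in wild-type P30 (-1.30, 0.000608), and Cbln2 had 43.2 and 44.9 CPM against 66.9 and 85.2 CPM (-0.79, 0.00832). The C1q-like genes, whose proteins bind kainate receptors at synapses, were higher. C1ql3 had 107 and 91.1 CPM in Otx2 +/GFP P30 against 79.6 and 71.3 CPM in wild-type P30 (0.40, 0.0367), and C1ql2 had 1.27 and 2.73 CPM against 0.0913 and 0.209 CPM, the level of 1 to 3 reads (0.00716). Nptx2 (-0.69, 0.0151), Dlgap3 (-0.34, 0.0158), Dlgap2 (-0.40, 0.0293) and the GABA-A partner Iqsec3 (-0.36, 0.0258) were lower. Without replicate 2 of wild-type P30, 0 partner genes were higher and 2 lower between genotypes. With age, 5 were lower without replicate 2 of wild-type P30 or without replicate 2 of wild-type P100. The Homer1 calls with age and genotype and the Cbln4 call with genotype were kept under all 15 alternatives run, while Lhfpl4 with age was lost under 12 of 15, Cacng4 and Nptxr with age under 7 of 15 each, and C1ql3 and Dlgap2 with genotype under 6 of 15 each. The NMDA receptor genes, which complete the glutamate receptors, had 1 lower of 6 tested with age (Grin1, -0.41, edgeR adjusted p = 0.00198) and 2 lower in Otx2 +/GFP at P30 (Grin2b, -0.28, 0.0399, and Grin1, -0.25, 0.0469). The genotype calls of Grin2b and Grin1 were lost under 5 and 9 of 15 alternatives. Cell type markers also moved between genotypes at P30. Of the oligodendrocyte markers, 6 of 8 were lower, with sums of 1910.8 and 2006.5 CPM in Otx2 +/GFP against 2716.8 and 2670.6 CPM in wild type. Also lower were 2 of 7 layer 4, 2 of 8 astrocyte and 1 of 6 endothelial markers, while 2 of 6 layer 5 markers were higher. The part of these in the genotype differences was not tested.

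**Figure D5:**
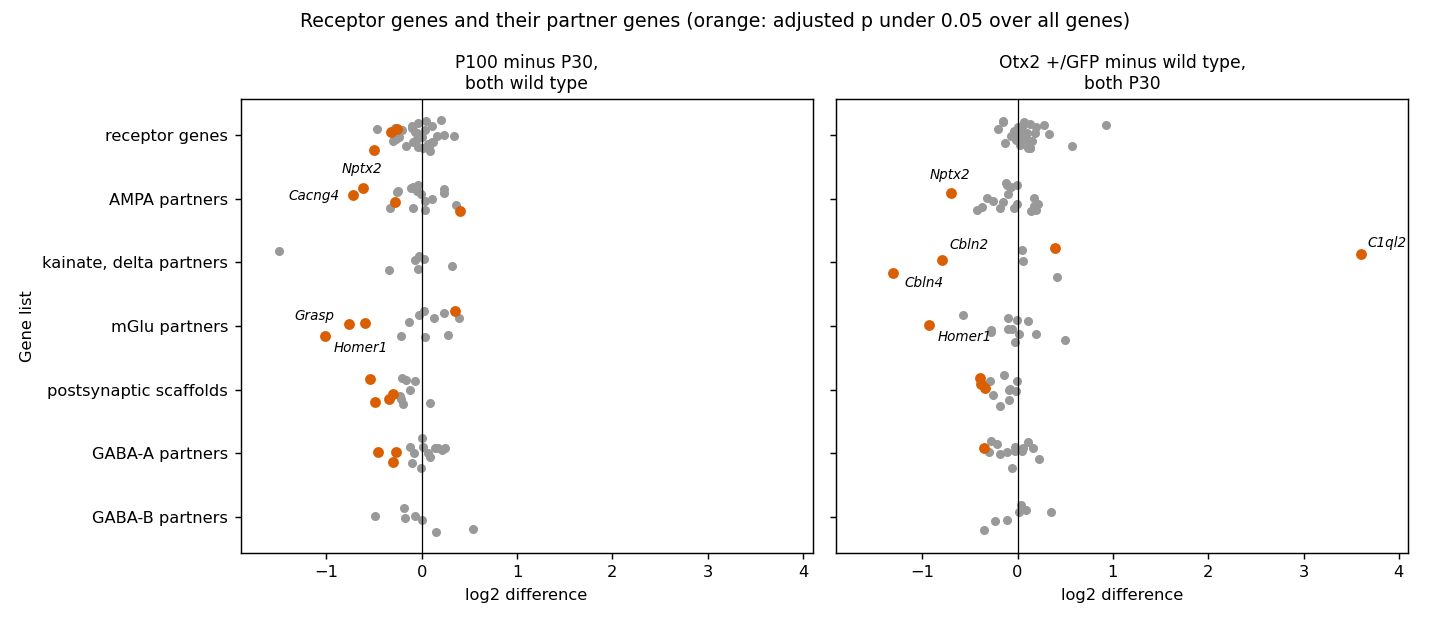
Log2 difference (x axis) of the receptor genes and of their partner genes in 6 lists (rows, points spread vertically for sight) for wild-type P100 minus P30 and for Otx2 +/GFP minus wild type at P30. Orange marks an adjusted p under 0.05 over all genes: 3 receptor genes and 15 partner genes with age, and 0 receptor genes and 10 partner genes between genotypes. The point of C1ql2 rests on 1 to 3 reads in wild-type P30, so its size is not read as a fold.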

How the data were processed

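RNA-seq was run on total RNA from layer IV of visual cortex, per the labels. The authors deposited raw read counts for 95533 transcripts per library, per the file headers and values. Bowtie, DESeq 1.8.3, HTSeq and the mm10 build are named, per the submitters' processing notes; the annotation release and use of strand are not given in the sources used here. Tables of the authors' comparisons, also deposited, give a log2 fold change and a p-value with its adjusted value per transcript, per the file headers, used only where named. Transcript totals were 30651483 to 42374860 counts. Transcripts of the same gene held similar counts (among receptor genes, the median ratio of the second-highest to the highest transcript was 0.84), so they were not summed, and the transcript with the highest total stood for its gene; 9669 transcripts without a gene, with 13.96% of counts, were left out.

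Low genes were removed by filterByExpr (at least 10 counts, at least 15 in total). After TMM scaling, edgeR 4.0.16 under R 4.3.3 fitted all 6 libraries with group (3 levels) as the only term, leaving 3 residual degrees of freedom, and applied its quasi-likelihood test with Benjamini-Hochberg adjustment over 15841 genes at 0.05. Code was tested on simulated data. A standard error is the log2 difference over the root of F, and intervals are 95%. Limits for a count of 0 use 3 counts and cover counting error only. Duplicates varied more than sampling noise allows (chi-square per degree of freedom 3.78 to 5.60).

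The receptor genes, partner lists and marker lists were chosen with earlier results of these data known. Some genes are not reported here by name; counts of genes include them. Library values are given for genes past the threshold, the highest per kilobase of each class and the largest rise and fall of each comparison; of partner genes, up to 4 per list with the smallest p are named. Grm8, Gabrb1, Gabrd, Gabra2, Gria3 and Gabbr2 were given in full after their values were seen. Other settings tried were scaling by RLE or upper quartile, omitting the filter or requiring 1 CPM in 2 libraries, limma-voom (limma 3.58.1) and DESeq2 1.42.0 as tools, fitting the 4 libraries compared, summing transcripts, a replicate block, and leaving out each library. Transcript lengths, gene positions and exon overlaps came from GENCODE M21 (GRCm38) and promoters from RefSeq (GRCm38.p6).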

Additional observations from a re-analysis of the deposited data

How the results depend on the processing

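The counts of receptor genes called moved with several settings. Between P100 and P30 the 3 calls became 5 with no filter (Grik3 among those added) and 0 with summed transcripts, and 0 to 3 when single libraries were left out (0 without replicate 2 of wild-type P30, and 1, Gabrd, without replicate 2 of wild-type P100). Between genotypes the count was 1, Grm8, with no filter or with the replicate block, and 0 to 0 over libraries left out. Between Otx2 +/GFP P30 and wild-type P100 the 5 calls became 1, Grm2, with summed transcripts and 1 to 5 over libraries left out. Other settings left these counts within 1.5 times, but a similar count need not hold the same genes. Without replicate 1 of wild-type P100, the age calls on Grm2, Grm3 and Grik5 were all lost. In that fit the log2 differences of Gabra5 and Grik3 with age were -0.65 and -0.58, against -0.27 and -0.31 with all libraries. Of the genes called in the main fit, only Gabrg3 has more than 1 transcript. For the others, summing changed the fit and adjustment over all genes but not their own counts.

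The labels do not say whether a replicate number marks a shared pool, litter or day. Deviations of same-numbered libraries correlated at -0.00078 between wild-type P30 and P100. The value was 0.118 between wild-type and Otx2 +/GFP P30, and 0.0013 between wild-type P100 and Otx2 +/GFP P30. These correlations cannot settle whether the samples were paired. With the block the calls were 4, 1 and 6 in the order above.

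Over all receptor genes and comparisons, signs turned in 66 cases. The 6 among the genes and comparisons chosen for this check follow, in which a difference was small or rested on a library. Gabra5 with age ran from -0.65 to 0.013, the highest without replicate 2 of wild-type P100. Between genotypes, Gria2 ran from -0.0048 without replicate 1 of wild-type P30 to 0.097, Grm3 was 0.00033 without replicate 2 of wild-type P30 and 0.0068 without replicate 2 of Otx2 +/GFP P30 (lowest -0.047), Grik5 ran from -0.11 to 0.024, the highest without replicate 1 of Otx2 +/GFP P30, and Grm2 from -0.073, without replicate 2 of Otx2 +/GFP P30, to 0.21. Gabra2, not among these 6, turned further. Without replicate 2 of wild-type P30 its log2 difference was 0.53 with age and 0.68 between genotypes, against -0.16 and -0.01 with all libraries.

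The difference in subunit share between genotypes was -3.57 percentage points for Gabrd, -2.60 without correction for length and -2.45 with summed transcripts. For Grm3 with age it was 1.27, and 1.797 without correction for length. The cause was not tested. Over all genes, calls ranged from 118 to 764 higher and 233 to 1096 lower with age, 52 to 392 and 129 to 728 between genotypes, and 120 to 758 and 135 to 715 between Otx2 +/GFP P30 and wild-type P100; the highest count came with no filter each time. Partner genes lower numbered 5 to 17 with age and 2 to 18 between genotypes.

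Depth limited Gabrq, which had 2 to 17 reads per library.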
